A study of Homo sapiens with 76 samples.

Results

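Human respiratory complex I (NADH:ubiquinone oxidoreductase) is built from subunits of both genomes of the cell, and the messenger RNAs of its nuclear-encoded subunits, the NDUF genes, are described here in single HEK293 cells. The members are all rows of the deposited count table whose symbol begins with NDUF, a letter A, B, C, S or V and a digit; assembly factors (NDUFAF genes) were left out, as was NDUFAB1. This gave 45 of 17513 gene rows. Of these, 35 are subunit genes, 8 are pseudogenes and 2 are antisense genes. HEK293 is an established human embryonic kidney line. In all, 76 of its cells were captured on a microfluidic chip with 96 chambers in 1 run and sequenced at the 5' ends of their transcripts. Each cDNA carried a unique molecular identifier (UMI), a random tag that lets copies of 1 molecule be counted once. All cells belong to 1 untreated group grown in DMEM with fetal calf serum, and the labels name no separate cultures, so each SD and correlation describes the spread among these cells and no test between groups was possible.

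The enzyme has a matrix arm, which takes electrons from NADH and passes them along iron-sulfur clusters to ubiquinone, and a membrane arm, which pumps protons across the inner mitochondrial membrane. The nuclear core subunits carry the flavin and the iron-sulfur clusters. The membrane arm holds the core subunits made inside the mitochondrion from the MT-ND messenger RNAs of the mitochondrial genome. Accessory subunits, all nuclear, surround both arms and are needed for assembly or stability. Every subunit of a finished enzyme is thus drawn from a nuclear or a mitochondrial messenger RNA, and the levels of both kinds were set against each other over the 76 cells.

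Because the assay counts transcript starts, the DNA just before the start of some members is shown, from RefSeq on build GRCh38.p14 (the counts rest on another build, hg19). The first 3 sequences belong to NDUFB10, NDUFS6 and NDUFC1, the members that reached a Spearman rho of 0.3 in size with the MT-ND messenger RNAs. Over all genes tested 4.03% reached 0.3 and 6.46% reached -0.3, and NDUFS6 did so only in some settings (described further on). The last 3 are the most abundant members whose promoter holds the motif of NRF1, a transcription factor known to act on nuclear genes of respiration. Each runs over the 150 bases before the start, 5′ to 3′ on the gene's own strand. Capitals mark GGGCGG or its reverse complement (read by SP family factors) in the first 3 and the match to the NRF1 motif in the last 3.
NDUFB10: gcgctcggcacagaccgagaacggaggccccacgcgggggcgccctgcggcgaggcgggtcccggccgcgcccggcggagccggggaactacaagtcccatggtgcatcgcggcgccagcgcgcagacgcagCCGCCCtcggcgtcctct
NDUFS6: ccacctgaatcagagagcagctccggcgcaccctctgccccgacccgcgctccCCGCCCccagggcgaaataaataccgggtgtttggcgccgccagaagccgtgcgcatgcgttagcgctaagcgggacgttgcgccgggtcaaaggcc
NDUFC1: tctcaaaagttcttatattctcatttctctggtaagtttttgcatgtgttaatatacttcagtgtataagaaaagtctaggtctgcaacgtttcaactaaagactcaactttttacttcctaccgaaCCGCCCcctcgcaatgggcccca
NDUFB4: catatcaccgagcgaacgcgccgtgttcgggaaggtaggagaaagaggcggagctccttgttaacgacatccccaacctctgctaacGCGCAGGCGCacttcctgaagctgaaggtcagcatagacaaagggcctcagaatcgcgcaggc
NDUFA3: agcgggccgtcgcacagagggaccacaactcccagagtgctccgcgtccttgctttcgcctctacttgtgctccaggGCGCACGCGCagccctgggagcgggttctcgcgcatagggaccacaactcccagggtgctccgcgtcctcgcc
NDUFA12: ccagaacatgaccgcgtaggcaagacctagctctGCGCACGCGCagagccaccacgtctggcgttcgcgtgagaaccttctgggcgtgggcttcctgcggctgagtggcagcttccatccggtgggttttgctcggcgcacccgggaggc
The windows lie at chr16:1959388-1959537 (plus strand) for NDUFB10, chr5:1801257-1801406 (plus) for NDUFS6 and chr4:139302552-139302701 (minus) for NDUFC1, of which 4 starts are listed and the first is shown. Those of NDUFB4, NDUFA3 and NDUFA12 lie at chr3:120596186-120596335 (plus), chr19:54102705-54102854 (plus) and chr12:95003698-95003847 (minus). The NDUFC1 window shown is 39.3% G and C, against 78% for NDUFB10 and 68% for NDUFS6, which have 1 listed start each. The content before the other NDUFC1 starts was not computed, and which start these cells use was not tested.

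Promoter windows from 250 bases before to 50 after the start were at hand for 29 of the 35 subunit genes, and each motif was sought on both strands. The NRF1 motif occurred in 6 of 29 members (20.7%), against 6.98% of 27305 genes. These members were NDUFA9, NDUFA12, NDUFA3, NDUFA8, NDUFA11 and NDUFB4. The YY1 letters AAGATGGC occurred in 5 members (17.2%), against 3.52% of genes, and the ETS family letters CCGGAAG in 5 (17.2%), against 12.2%. GGGCGG, the letters bound by SP family factors, occurred in 19 members (65.5%), against 48.3% of genes. The YY1 and ETS letters can overlap by AAG, though no member held both. A match is a description of letters and not evidence of binding, and no match says only that these letters are not in this window.

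Together the 45 rows gave 283 ± 107 UMIs per cell (SD, n = 76 cells), with a lowest value of 106, a median of 270 and a highest of 546. This was 1.299% ± 0.188 of a cell's UMIs, from 0.841% to 1.86%. The 7 MT-ND messenger RNAs gave 309 ± 167 UMIs, with a lowest value of 54, a median of 277.5 and a highest of 748. Cells held from 7305 to 43392 UMIs of genes in all (median 20966), and from 1390 to 3132 UMIs of spike-in RNA, of which 20000 molecules per cell were added. Scaled by the spike-in, the NDUF rows came to an estimated 2525 ± 832 molecules per cell, which assumes that cellular and spike-in RNA are captured alike. A cell showed a median of 31 of the 35 subunit genes, from 22 to 34. Of the marker genes checked, UCHL1 was seen in 70 cells, NEFM in 49, KRT18 in 45, NEFL in 26 and KRT8 in 19; of blood, fibroblast, muscle and liver markers the highest was COL1A1, with 12 UMIs in 8 cells.

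**Figure D1:**
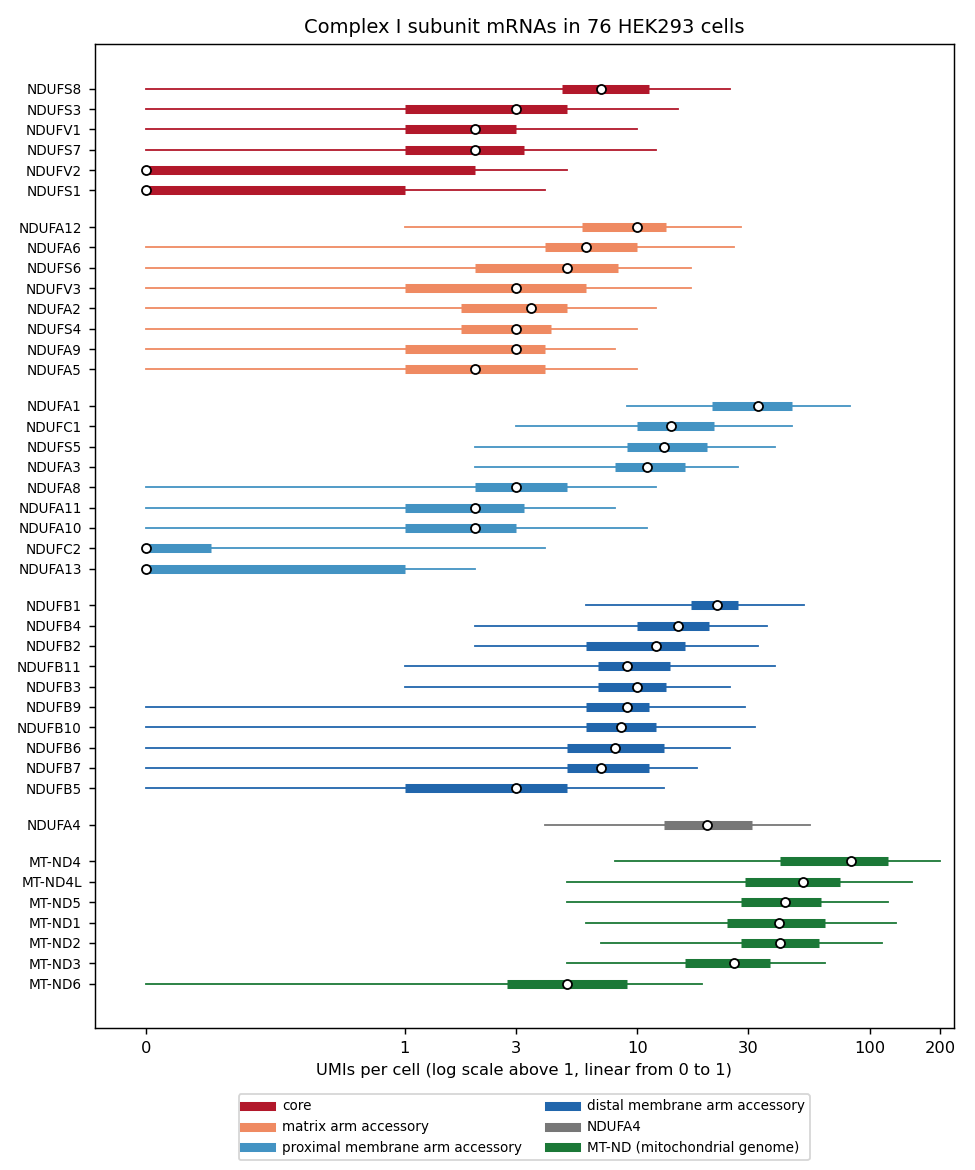
UMIs per cell (log axis above 1, linear from 0 to 1) for 34 NDUF subunit genes by role and the 7 MT-ND messenger RNAs, over 76 cells; thin lines run from the lowest to the highest cell, thick lines from the lower to the upper quartile, and points are medians. NDUFA1 is the highest NDUF gene (median 33), core subunits lie low, and all MT-ND messenger RNAs but MT-ND6 have medians from 26 to 83.

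The core subunits had the fewest transcripts, with 20.3 ± 10.7 UMIs per cell over 7 genes, or a mean of 2.90 per gene. A 5' count takes each molecule once whatever its length, so UMIs were not divided by length. NDUFS8, which carries iron-sulfur clusters between the flavin and the quinone site, led with a lowest value of 0, a median of 7 and a highest of 25 UMIs (8.47 ± 5.57). It was followed by NDUFS3 (3.84 ± 3.48) and by NDUFV1 (2.43 ± 2.16), which binds NADH and the flavin. NDUFS7, which holds the last iron-sulfur cluster before ubiquinone, had the same mean, 2.43 ± 2.26. NDUFV2 gave 0.895 ± 1.18 and was seen in 36 of 76 cells (47.4%, exact Clopper-Pearson 95% interval 35.8% to 59.2%). NDUFS1, the largest subunit and the carrier of several clusters, was lowest at 0.632 ± 0.95 and was seen in 30 cells (39.5%, 28.4% to 51.4%). These intervals cover counting error only, and a cell with no UMI may still express the gene.

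The 8 matrix arm accessory genes gave 39.96 ± 17.2 UMIs, or 4.995 per gene. NDUFA12, a small accessory subunit, was seen in every cell, with a lowest value of 1, a median of 10 and a highest of 28 UMIs (10.6 ± 5.91). NDUFA6, which binds a mitochondrial acyl carrier protein, gave 7.17 ± 4.75, and the zinc-binding NDUFS6 gave 5.55 ± 4.00. NDUFV3 (4.34 ± 3.65), NDUFA2 (3.70 ± 2.63), NDUFS4 (3.30 ± 2.50) and NDUFA9 (2.72 ± 1.87) followed, and NDUFA5 was lowest at 2.57 ± 2.35. NDUFA7 was not analysed here. GENCODE 29 names 12 pseudogenes of NDUFA5, and how reads shared with such copies were counted is not given in the sources used here.

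Membrane arm accessory genes were the more abundant by sum and by mean per gene. By the median gene this held for the distal part (10.1 UMIs) but not for the proximal part. There the median gene had 3.68 UMIs, against 4.02 for the matrix arm accessory genes. The 9 of the part next to the matrix arm gave 87.3 ± 34.1 UMIs (9.70 per gene), and the 10 of the distal part, all NDUFB genes, gave 112 ± 43.3 (11.2 per gene). In the proximal part NDUFA1, a small X-linked subunit needed for assembly of the membrane arm, was the most abundant member of the family, with a lowest value of 9, a median of 33 and a highest of 82 UMIs (34.8 ± 15.4). NDUFC1 had a lowest value of 3, a median of 14 and a highest of 46 UMIs (16.6 ± 9.03), and NDUFS5, a subunit of the intermembrane space side, gave 14.99 ± 8.27. NDUFA3 gave 12.1 ± 5.95, while NDUFA8 (3.68 ± 2.89), NDUFA11 (2.28 ± 1.80) and NDUFA10 (2.12 ± 2.13) were lower. The lowest were NDUFC2 (0.421 ± 0.883, in 19 cells) and NDUFA13 (0.316 ± 0.571, in 20 cells), a subunit also known as GRIM-19. In GENCODE 29 NDUFC2 overlaps NDUFC2-KCTD14 and NDUFA13 overlaps YJEFN3 on the same strand, and the part this has in their low counts was not tested. Other members overlap a gene on the same strand too, among them NDUFC1 with MGARP, and the part of this in their counts was not tested either.

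Of the distal genes, NDUFB1 led with a lowest value of 6, a median of 22 and a highest of 52 UMIs (21.7 ± 8.66), followed by NDUFB4 (15.9 ± 7.67) and NDUFB2 (12.04 ± 6.65). NDUFB4, which has 12 named pseudogenes, is uncertain for that reason. NDUFS5 (6), NDUFA3 (5), NDUFB9 (3) and, in smaller numbers, other members have named pseudogenes too. The X-linked NDUFB11 gave 11.1 ± 6.91, NDUFB3 10.3 ± 5.45, NDUFB9 9.96 ± 6.33, NDUFB10 9.59 ± 6.08, NDUFB6 9.39 ± 5.70 and NDUFB7 8.29 ± 4.70. NDUFB5 was lowest at 3.42 ± 2.76, and NDUFB8 was not analysed here. NDUFA4, first named as a complex I subunit and later assigned to complex IV (cytochrome c oxidase), had a lowest value of 4, a median of 20 and a highest of 55 UMIs (23.03 ± 12.3). Its paralog NDUFA4L2 was not analysed here. In the order of all 35 subunit genes by mean, neighbours differed by less than the SD over cells of either gene.

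The 10 rows that are no subunit gene gave 30 UMIs over all cells. They were NDUFA5P6, NDUFA5P11, NDUFA5P12, NDUFA9P1, NDUFB1P1, NDUFB8P1, NDUFS5P3, NDUFV2P1, NDUFA6-AS1 and NDUFB2-AS1. The highest, NDUFA6-AS1, was seen in 4 cells and NDUFB8P1 in 1. Across the 35 subunit genes, mean UMIs were lower where the median length of a gene's protein coding transcripts was greater (Spearman rho = -0.393), and over 2541 genes tested with a known length the rho was -0.295. Both are across genes, which are not independent replicates. The median length was 761 bases for the subunit genes, against 1241 for the genes tested.

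Among the MT-ND messenger RNAs, MT-ND4 was highest with 84.8 ± 48.3 UMIs per cell (lowest 8, median 83, highest 199). MT-ND4L, which shares a transcript with MT-ND4, gave 54.4 ± 33.003, MT-ND5 45.7 ± 24.4, MT-ND1 45.1 ± 29.02, MT-ND2 44.9 ± 24.1 and MT-ND3 27.3 ± 14.8. MT-ND6, the messenger RNA encoded on the other strand of the mitochondrial genome, was lowest with 6.29 ± 4.49 and had no UMI in 4 cells. The mean per MT-ND gene was 44.1 UMIs, above every NDUF gene.

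The summed NDUF share had a narrower range over cells than the summed MT-ND share, which did not hold for every single gene (given further on). The coefficient of variation (CV) of the NDUF share was 14.5%, of which counting alone gives 6.39%, which leaves an excess CV of 13.02%. For the MT-ND share the CV was 43.99%, with 6.95% from counting and an excess of 43.4%. The highest cell had 2.21 times the NDUF share of the lowest and 7.55 times the MT-ND share. NDUF UMIs per MT-ND UMI therefore ran from 0.257 to 3.15 among cells (median 0.989), and 37 of 76 cells held more NDUF than MT-ND UMIs. By the same measure the 8 complex III genes had an excess CV of 13.8%, complex IV genes 13.4% and ATP synthase genes 12.4%, all nuclear, whereas the other mitochondrial messenger RNAs had 42.5%. Sums of more genes average out more of the members' own spread, so these values are set side by side and not ranked.

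Single members differed in spread. The Pearson dispersion compares each cell's count with the one its total UMIs predict, as a squared difference over the predicted count, averaged over cells. It is 1 where counting noise is the only spread. It was computed for genes with a mean of at least 1 UMI, which 31 of the 45 rows passed. The other 14 were the 10 rows that are no subunit gene and NDUFV2, NDUFS1, NDUFC2 and NDUFA13. Spike-in RNAs, which carry technical spread only, were set against a cell's spike-in total and reached 2.20, the limit used here. It was set by a scarce spike-in RNA, ERCC-00035 (mean 2.17 UMIs). Of the members 14 of 31 lay above that limit, against a background of 21.6% of 2810 genes, and the members' median was 2.13 against 1.76 for all genes. The dispersion grows with abundance: above the limit lay 0 of 7 members with 1 to 3 UMIs (10.4% of such genes), 6 of 13 with 3 to 10 UMIs (26.9%) and 8 of 11 with 10 or more UMIs (68.5%). Just above the limit lay NDUFB10 (2.1974) and NDUFA8 (2.22), and just below it NDUFB11 (2.16), the limit itself being 2.1963. With 71 cells thinned to 10940 UMIs, which lowers all counts, 1 of 30 members lay above it, and 126 genes in all.

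NDUFA4 had the highest dispersion of the members (3.28), followed by NDUFB1 (3.15) and NDUFC1 (2.75). NDUFA9 had the lowest, 1.03. Put as a CV in excess of counting, the 31 members ran from 10.3% for NDUFA9 to 58.98% for NDUFA5 (median 35.5%), against 38.2% to 52.6% for the 7 MT-ND messenger RNAs (median 41.5%). The ranges overlapped: 14 of the 31 members lay at or above the lowest MT-ND value, and 6 above the highest. Of members with 10 or more UMIs, the abundance nearest to that of most MT-ND messenger RNAs, 0 of 11 reached the lowest MT-ND value (21.7% to 35.5%). Of those with 3 to 10 UMIs 9 of 13 did, among them NDUFV3 (58.007%) and NDUFA8 (57.5%), and of those with 1 to 3 UMIs 5 of 7 did, where few counts stand behind each value. All 7 MT-ND messenger RNAs lay above the spike-in limit, from 2.74 for MT-ND6 to 17.5 for MT-ND4.

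**Figure D2:**
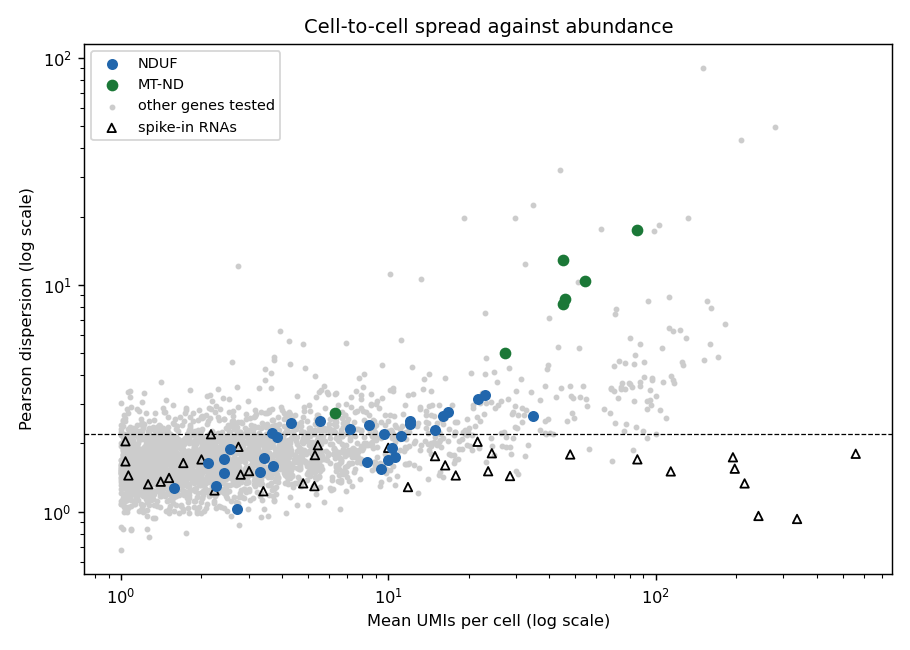
Pearson dispersion over 76 cells (log axis) against mean UMIs per cell (log axis) for 31 NDUF rows, 7 MT-ND messenger RNAs, the other genes tested and 36 spike-in RNAs; the dashed line is the highest spike-in RNA, 2.20. NDUF genes lie within the cloud of other genes of their abundance, up to 3.28, and 6 of the MT-ND messenger RNAs lie above all NDUF genes.

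The NDUF share and the MT-ND share showed no clear relation over the 76 cells (Spearman rho = 0.0414, Pearson r = -0.0326). Without the 2 cells farthest from the median MT-ND share r was 0.0809. All points come from 1 chip and 1 run, and both shares have the cell's total in the denominator. The cell with the highest MT-ND share (3.28%) had the lowest NDUF share (0.841%), and the cell with the lowest MT-ND share (0.434%) had an NDUF share of 1.302%, close to the mean. With the genes of the mitochondrial genome left out of the totals rho was 0.194. By role, rho with the MT-ND share was -0.0380 for the core genes, -0.0527 for the matrix arm accessory genes, 0.0553 for the proximal and -0.125 for the distal membrane arm genes, and 0.248 for NDUFA4.

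Scaled by spike-in UMIs the sums rose together (rho = 0.605, r = 0.569, and r = 0.552 without 2 cells). A cell's whole RNA content then enters both measures. On that scale the median rho of single genes with the MT-ND sum was 0.247 over the 31 members and 0.229 over 2803 genes, and 12 members reached 0.3, against 33.2% of genes. The NDUF share itself fell as cells held more UMIs (rho = -0.408, r = -0.388), while the MT-ND share had a rho of 0.0517 with UMIs. The NDUF share also fell as the share of transcripts longer than 2000 bases rose (rho = -0.545) and rose with the share of cytosolic ribosomal protein genes (rho = 0.344). With the cell total regressed out of the ranks, the rho between the NDUF and MT-ND shares was 0.0685. It was -0.0588 after the same was done for long transcripts and 0.215 after it was done for the glycolysis share, and all 3 alternatives were added after seeing the data.

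**Figure D3:**
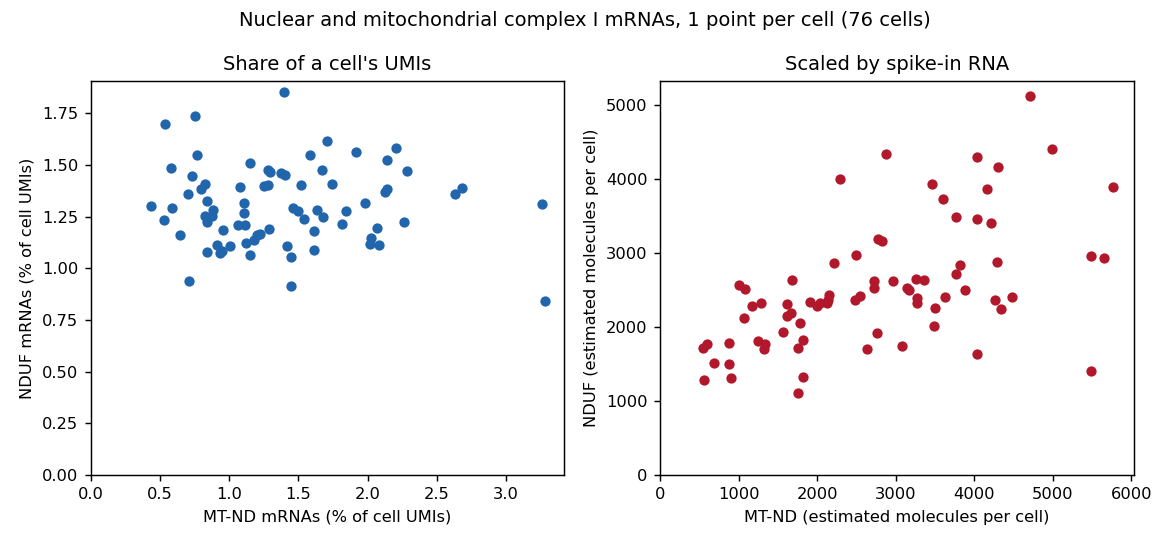
NDUF (vertical axes) against MT-ND messenger RNAs (horizontal axes), 1 point per cell for 76 cells, as percent of the cell's UMIs (left) and as molecules per cell estimated from spike-in RNA (right). On the left the points form no slope (rho = 0.0414) and the NDUF share keeps to a range of 0.841% to 1.86%; on the right both rise together (rho = 0.605), with the RNA content of a cell in both axes.

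Gene by gene, most members were likewise unrelated to the summed MT-ND share, and 3 of 31 reached a Spearman rho of 0.3 in size. NDUFC1 was higher, against a background of 4.03% of 2803 genes at 0.3 or above. NDUFB10 and NDUFS6 were lower, against 6.46% at -0.3 or below. The median rho was -0.0132 over the members and -0.0290 over all genes, so the members as a group stood near the background. Without mitochondrial genes in the totals the members still split into 1 higher and 2 lower, while all genes split into 151 higher and 140 lower, against 113 and 181 with full totals. By abundance, 1 of 11 members with 10 or more UMIs was higher and 0 lower, beside 11.4% and 18.5% of all genes so abundant. Of 13 members with 3 to 10 UMIs 0 were higher and 2 lower, beside 4.61% and 9.22%, and of 7 with 1 to 3 UMIs 0 were higher or lower, beside 2.45% and 3.03%.

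**Figure D4:**
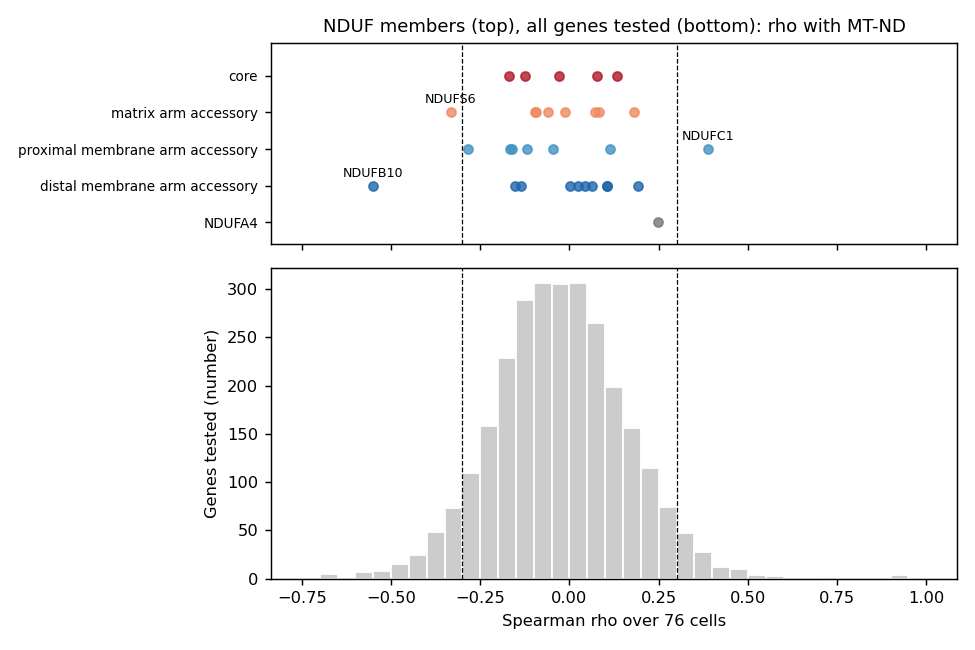
Spearman rho over 76 cells between a gene's share of UMIs and the summed MT-ND share, for the 31 NDUF members by role (top, 1 point per gene) and all 2803 genes tested (bottom, number of genes per bin of 0.05); dashed lines mark -0.3 and 0.3. Most members lie between the lines, NDUFB10 (-0.552) and NDUFS6 (-0.333) lie below and NDUFC1 (0.389) above.

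NDUFB10, an intermembrane space subunit of the distal membrane arm, had the lowest value of all members. Its counts ran from 0 to 32 UMIs per cell with a median of 8.5, or 0.0444% ± 0.0220 of a cell's UMIs. Its share fell as the MT-ND share rose (rho = -0.552, r = -0.539, and r = -0.510 without 2 cells), the 11th lowest rho of 2803 genes. It was negative with each of the 7 MT-ND messenger RNAs, from -0.535 with MT-ND4 to -0.349 with MT-ND6, and with the share of the other mitochondrial messenger RNAs (rho = -0.512). NDUFB10 was picked on the sum of those 7, and all these messenger RNAs vary together. The single values are thus no further support. The genes of lower rho included the ribosomal protein genes RPL13 (-0.698), RPS3 (-0.672), RPL3 (-0.672) and RPL8 (-0.598), the RNA-binding protein gene HNRNPA1 (-0.686), CHCHD3, a component of mitochondrial cristae junctions (-0.655), and the glycolytic ENO1 (-0.585). All of these were chosen after their values were seen, as was RPS2, which lies next to NDUFB10 on the other strand of chromosome 16. RPS2 had -0.536, and its share rose with that of NDUFB10 (rho = 0.460). Per spike-in UMI the rho of NDUFB10 with MT-ND was -0.0707, where the median gene had 0.229.

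NDUFC1, a small proximal membrane arm subunit, rose with the MT-ND share (rho = 0.389, r = 0.395, and r = 0.348 without 2 cells), the 43rd highest rho of 2803 genes, and took 0.0761% ± 0.0307 of UMIs. It was positive with each MT-ND messenger RNA, from 0.244 with MT-ND6 to 0.452 with MT-ND3. NDUFC1 too was picked on the sum of these messenger RNAs, so the single values are no further support. Its share fell as that of NDUFB10 rose (rho = -0.334). NDUFS6 was lower (rho = -0.333, r = -0.282), but lay at -0.242 with cells thinned, at -0.297 with totals without abundant genes and at 0.0334 per spike-in UMI. The next members on each side were NDUFS5 (-0.283), NDUFA4 (0.248) and NDUFB6 (0.191), of which NDUFA4 reached 0.374 with cells thinned and 0.304 with totals without abundant genes. Over all 217 pairs of a member and an MT-ND messenger RNA the mean rho was -0.0178. Between the MT-ND messenger RNAs the mean over 21 pairs was 0.664.

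**Figure D5:**
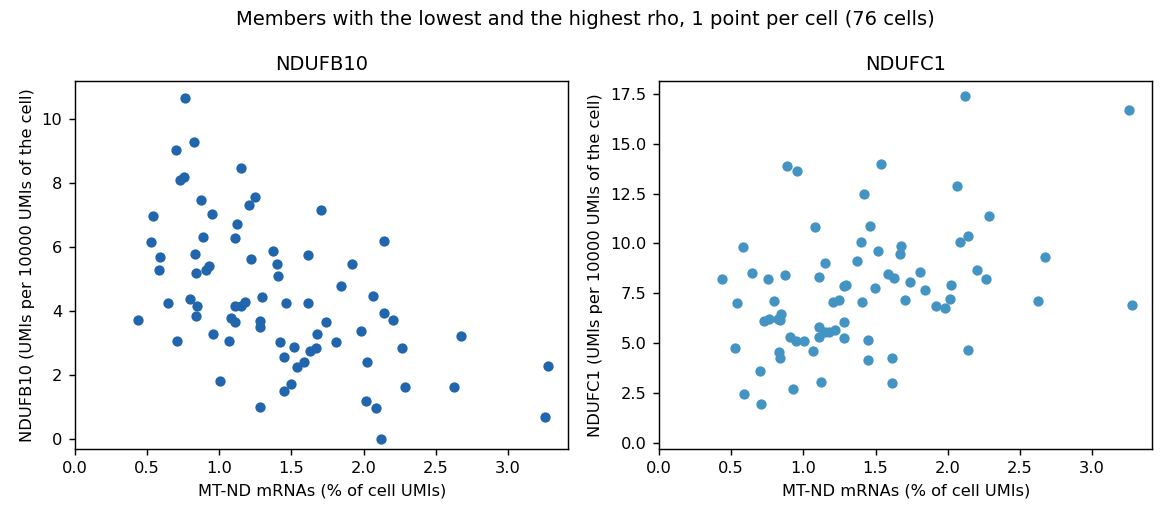
UMIs of NDUFB10 (left) and NDUFC1 (right) per 10000 UMIs of the cell (vertical axes) against the MT-ND share in percent (horizontal axes), 1 point per cell for 76 cells. NDUFB10 falls (rho = -0.552) and NDUFC1 rises (rho = 0.389) with the MT-ND share, with wide scatter in both.

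Glycolytic genes moved with the same measure and are given beside it. Their summed share fell as the MT-ND share rose (rho = -0.672, r = -0.625). That rho was -0.623 with the genes of the mitochondrial genome left out of the totals. It was 0.243 per spike-in UMI, where RNA content enters both measures, so its sign depends on the scale. Of 11 glycolytic genes tested 7 reached -0.3, beside 6.46% of all genes and 18.5% of genes with 10 or more UMIs. The NDUFB10 share rose with the glycolysis share (rho = 0.459) and the NDUFC1 share fell (rho = -0.302). With the glycolysis share regressed out of the ranks, an alternative added after seeing the data, the rho with the MT-ND share was -0.370 for NDUFB10, 0.263 for NDUFC1, -0.270 for NDUFS6 and 0.364 for NDUFA4. The members past 0.3 in size were then NDUFB10 and NDUFA4, beside 2.07% of genes higher and 2.21% lower. The share of G2 and M phase genes rose with the MT-ND share (rho = 0.301) and fell as the NDUF share rose (rho = -0.292). The S phase share fell as the NDUF share rose (rho = -0.274) and was near 0 with the MT-ND share (rho = -0.0149). Per spike-in UMI the S phase sum had a rho of 0.611 with NDUF and 0.469 with MT-ND. The G2 and M phase sum then had 0.614 and 0.619. Base composition moved with the rho toward MT-ND too. Over the 31 members that rho was lower where the median G and C content of the transcripts was higher (rho across genes = -0.415). The same held over 2541 genes tested (-0.229). NDUFB10 transcripts had 59.3% G and C, NDUFS6 56.1%, NDUFC1 49.4% and NDUFA4 40.4%. The part of phase and base composition in these relations was not tested.

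The members varied with each other only weakly. The mean Spearman rho over 465 pairs of the 31 members was 0.0210, against 0.0140 over all pairs of 2810 genes, and pairs ran from -0.364 to 0.375. Counting noise lowers such values for genes of few UMIs: between the 11 members with a mean of at least 10 UMIs the mean was 0.112, against 0.0329 for the 314 genes so abundant. For each of 24 members with a mean of at least 3 UMIs the share was also set against the summed share of the other NDUF rows. The rho was highest for NDUFA6 (0.341), NDUFB2 (0.317), NDUFB1 (0.314) and NDUFA4 (0.310), lowest for NDUFA2 (-0.164), and had a median of 0.160. At 0.3 or above lay 6 of these 24, against 3.54% of 1072 genes outside the family, whose median with the NDUF share was 0.00139. NDUFB10 (0.0688) and NDUFC1 (0.194) did not stand at either end of this order.

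The genes outside the family most like the summed NDUF share, over 76 cells and 1072 genes, were RPS26 (rho = 0.559), RPL27 (0.487), RPL30 (0.473), and COX7B (0.456) and COX7A2 (0.451), the last ones being small subunits of cytochrome c oxidase. Their median transcript lengths ran from 423 to 1140 bases. At the other end lay the chaperone gene HSP90AB1 (-0.514), SRRM2 (-0.449) and SMC1A (-0.424), named after their values were seen. Of the other nuclear genes of respiration, the ATP synthase share rose with the NDUF share (rho = 0.534), as did that of complex IV (0.444), and the share of 8 complex III genes had a rho of 0.284. The 19 complex I assembly factor genes analysed here, led by NDUFAF3 (12.9 ± 6.45 UMIs), had a rho of 0.212 with the NDUF share and 0.0214 with the MT-ND share. Complex II, led by SDHB (5.50 ± 3.59 UMIs), had -0.0226 with the NDUF share on few UMIs, and the genes of mitochondrial DNA expression and biogenesis, led by SSBP1 (20.6 ± 9.55), had 0.0437.

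The same count at 0.3 was made toward the MT-ND share for those lists. Over all 2803 genes 4.03% were higher and 6.46% lower, and over genes with 10 or more UMIs 11.4% and 18.5%. Of 9 assembly factor genes tested 0 reached 0.3 in either direction, of 9 genes of mitochondrial DNA expression 0, and of 2 complex II genes 0. Of 8 complex III genes 0 reached it, from -0.161 to 0.183, while CYCS, which encodes the mobile electron carrier cytochrome c and is no complex III subunit, was higher (0.461). Of 10 complex IV genes 1 was higher and 1 lower, and of 17 ATP synthase genes 2 were higher, among them ATP5G2 (0.480); CYCS and ATP5G2 were named after their values were seen. The other 6 mitochondrial messenger RNAs were all higher, from 0.726 to 0.927, and their summed share followed that of MT-ND with a rho of 0.958.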

How the data were processed

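The authors deposited 1 table of raw UMI counts (whole numbers) for 76 cells. Per the submitters' processing notes, cutadapt 1.2.1, STAR 2.4.0a and the build hg19 (GRCh37) were used, with no role given. The sources used here do not give the UMI counter, the annotation, the use of strand, the handling of multiply mapped reads or how cells were selected. A row called GENE that repeats column numbers (0.197% of all values) was left out, and 80 spike-in rows were kept apart. No pair of cells held identical values (0 pairs), and no doublet caller was run. Shares are percent of a cell's gene UMIs. Per-gene correlations and dispersions used genes with a mean of at least 1 UMI, fitted on the whole table; the 7 MT-ND genes were not set against their own sum. Correlations are given as descriptions, without p-values, since cells of 1 sample are not replicates. Depth per cell (7305 to 43392 UMIs) leaves rare genes governed by counting error. Named genes are the most and least abundant members of each role, the 3 highest and 3 lowest for rho with MT-ND, and the 3 of highest dispersion; other members are given for completeness, outside the family the 5 genes most like the NDUF share and the leading genes of each list, and further genes where said to be chosen on their values. Members, lists and rules were chosen with earlier results of these data known. CYCS was taken out of the complex III list after its value was seen, since it is no subunit; with it the rho of that list with the NDUF share was 0.365. Scripts were tested on simulated data. The alternatives were leaving out 5 shallow cells, UMI collision correction (20736 tags, for the N(4)H(4) tag of the labels' protocol; the table's column names read N6H4, which would allow more tags and so a smaller correction), thinning to 10940 UMIs, other scales, other filters, log values and other member sets. Transcript lengths and G and C content are medians over protein coding transcripts in GENCODE 29. Tools were Python 3.11.15, numpy 2.4.6, scipy 1.17.1 and pandas 2.3.3. The values of 1 subunit gene are not reported here on their own, though it is counted in the sums.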

Additional observations from a re-analysis of the deposited data

How the results depend on the processing

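Of 110 values recomputed under alternatives, 98 moved by less than the margin set for them. The margins were wide enough to let a value cross 0.3 in size: with cells thinned NDUFS6 went from -0.333 to -0.242 and NDUFA4 from 0.248 to 0.374. A value within its margin thus need not keep its call. Per spike-in UMI, where RNA content enters every measure, the rho between NDUF and MT-ND was 0.605 and NDUFS6 turned to 0.0334. On that scale 12 members reached a rho of 0.3 in size (12 higher, 0 lower), beside 33.2% of genes higher. The mean pairwise rho of members was then 0.238 (all genes 0.179). Elsewhere the rho between the summed shares ran from -0.0588 to 0.223, and 2 to 4 members reached 0.3. They were 2 with the glycolysis share regressed out (NDUFB10 and NDUFA4), 4 with long transcripts regressed out (NDUFS5 added) and 3 otherwise. Of those 3, 2 were higher and 1 lower with thinned cells and with totals without abundant genes. Over all genes the shares higher and lower were 2.07% and 2.21% with glycolysis and 4.35% and 6.14% with long transcripts regressed out. They were 4.56% and 7.13% with thinned cells and 5.49% and 5.03% with totals without abundant genes. These counts of members are thus no sign of a trait of the family. Those totals put the NDUF share at 2.05%, since fewer UMIs stand in the denominator. With thinned cells 1 of 30 members lay above the spike-in dispersion in place of 14 of 31, and 126 genes in place of 606. Fewer genes then passed the mean of 1 UMI (1557 against 2803, MT-ND left out) and 71 of 76 cells were kept, so the 2 gene counts do not compare directly. The limit came from spike-in RNAs that were not thinned. No paired analysis was possible because there is 1 group and no result comes from a test. Depth limits the rarest members: NDUFS1, NDUFV2, NDUFC2 and NDUFA13 gave too few UMIs for any statement on their spread.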

Other observations

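Rows named as nuclear copies of MT-ND genes (19 rows) gave 5.96 ± 4.30 UMIs per cell, most of them from MTND2P28 (3.61 ± 2.61). Their summed share had a rho of 0.450 with the MT-ND share and -0.0742 with the NDUF share over 76 cells. The assignment of reads that match both the mitochondrial genome and such copies is not stated in the labels.

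The share of the mitochondrial ribosomal RNAs MT-RNR1 and MT-RNR2 fell as the NDUF share rose (rho = -0.388, and r = -0.318 without the 2 cells farthest from its median), while that of the mitochondrial messenger RNAs other than MT-ND had a rho of 0.0370 with it. Per spike-in UMI these rho values were 0.484 and 0.622, so they too depend on the scale. The share of mitochondrial ribosomal protein genes (74 rows, 291 ± 123 UMIs per cell), nuclear like NDUF, had a rho of -0.264 with the MT-ND share. That rho was -0.0791 with the genes of the mitochondrial genome left out of the totals and 0.524 per spike-in UMI, so it depends on the scale.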
